A study of Mus musculus with 4 samples.

Results

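Cytochrome P450 genes were taken as all rows whose symbol is Cyp followed by a family number, a subfamily letter and a member number, which gave 92 of the 21878 rows in each of 4 RNA sequencing tables. The tables come from mouse liver progenitor-like cells, which are proliferating cells that liver cells give rise to in transition and expansion media. There were 2 libraries of cells of hepatocyte origin (HepLPC) and 2 of non-parenchymal origin (NPC_LPC) by their titles, and the series asked how their expression profiles differ. The cell type label of the HepLPC libraries names both hepatocytes and non-parenchymal cells as their source, so a purely hepatocyte origin rests on the title alone. All mice were C57BL/6 and 6 to 8 weeks old by one label, and 8 weeks old by the protocol. The protocol names 2 lineage-tracing models, tdTomato mice given AAV8-TBG-Cre for the hepatocyte preparation and AlbCreERT/R26GFP mice for the non-parenchymal preparation. AAV8-TBG-Cre is a virus that carries Cre recombinase under a hepatocyte promoter, and AlbCreERT is an inducible Cre under the albumin promoter. Under that reading the mouse line and the virus follow the group, and a difference of origin cannot be told apart from them. Nothing in the labels says that the 2 libraries of a group came from separate mice or cultures, so p-values measure only the spread between these libraries, which may be technical.

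P450 enzymes are haem proteins that insert an oxygen atom into their substrates, with electrons passed on by the reductase Por or, in mitochondria, by ferredoxin. Many enzymes of families 1 to 3 oxidise drugs, pollutants and plant compounds, and family 4 mainly oxidises fatty acids and eicosanoids. Most of the remaining families make or break down steroids, bile acids, retinoic acid or vitamin D. Single members depart from this split. The adult hepatocyte is the main site of drug-metabolising P450 expression. Ligand-activated receptors switch many P450 genes on, among them the aryl hydrocarbon receptor (Ahr) for family 1, PXR (Nr1i2) and CAR (Nr1i3) for families 2 and 3, and retinoic acid receptors for family 26.

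Upstream sequences are shown for Cyp1a1 and Cyp1b1, the tested family 1 genes, whose levels were uneven between libraries in opposite ways, and for a short site of Cyp26a1, which had most of its reads in 1 library. All come from RefSeq on GRCm38.p6 and are written in the direction of transcription. For Cyp1a1 (chr9:57697363-57697612, plus strand) and Cyp1b1 (chr17:79715062-79715311, minus strand) the 250 bases before the start site are given, and capitals mark the core of the xenobiotic response element, GCGTG on either strand, to which the Ahr dimer is known to bind. The Cyp1a1 window lies inside the span of a longer annotated transcript of the gene. The Cyp26a1 site also lies inside its gene, annotated from 37697738, so it is not upstream of every annotated start. For Cyp26a1 (chr19:37697770-37697799, plus strand) the 30 bases around a direct repeat are given, and capitals mark the 2 copies of TGAACT, a repeat that with this spacing, whatever the letters between, is a form of the retinoic acid response element.
Cyp1a1: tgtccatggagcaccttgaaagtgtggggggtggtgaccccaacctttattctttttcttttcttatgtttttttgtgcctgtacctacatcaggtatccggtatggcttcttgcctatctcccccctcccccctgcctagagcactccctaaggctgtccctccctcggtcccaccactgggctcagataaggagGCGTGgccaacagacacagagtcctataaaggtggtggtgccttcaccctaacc
Cyp1b1: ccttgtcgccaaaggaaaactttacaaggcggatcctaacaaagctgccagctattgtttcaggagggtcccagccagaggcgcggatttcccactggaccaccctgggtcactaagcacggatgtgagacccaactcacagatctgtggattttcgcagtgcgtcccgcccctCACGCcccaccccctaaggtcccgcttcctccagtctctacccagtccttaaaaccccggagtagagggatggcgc
Cyp26a1: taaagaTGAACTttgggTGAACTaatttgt
The GCGTG match ends 49 bases before the start site in Cyp1a1 and 71 bases before it in Cyp1b1, where it lies on the other strand. The core is common, and 28.2% of all 32851 windows of this length held it on one strand or the other. The longer form TNGCGTG, which contains the core, was in 4.1% of windows and in neither of these. The direct repeat was in 0.0213% of windows, which is 7 in all, and Cyp26a1 was the only one of the 72 P450 genes with a window that held it. A match describes letters and says nothing of binding in these cells.

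Most P450 genes had no counted reads in these cultures. Reads in this text are the deposited gene counts. Of the 92 genes, 52 had a count of 0 in every library, which is 56.5% against 27.6% of all rows. Among these 52, the deposited FPKM, a value scaled by transcript length, was not always 0. It was 0.023 for Cyp2c40 in HepLPC replicate 2 and 0.0217 for Cyp4f37 in NPC_LPC replicate 2. A further 11 had at most 3 reads, 7 had at most 9 and 5 had 10 or more in some library but too few to test. The remaining 17 genes, or 18.5% of the family against 56.4% of all rows, passed the filter on low counts. In family 2, leaving aside Cyp2r1, which is counted with the vitamin D genes, 31 of 46 genes had no read, and in families 3 and 4 it was 4 of 7 and 10 of 17. Cyp2e1, the ethanol and paracetamol oxidase of pericentral hepatocytes, Cyp2c29, Cyp3a11, the main hepatic drug oxidase under PXR, Cyp7a1, the rate-limiting enzyme of bile acid synthesis, and Cyp8b1, which sets the cholic acid share, had 0 reads in all 4 libraries. A count of 0 allows up to 3 reads, which is between 0.149 and 0.169 CPM, a count scaled by library size, depending on the library. Cyp2f2 had 2 reads, all in NPC_LPC replicate 1, and Cyp1a2, a hepatocyte gene next to Cyp1a1, had 6 and 5 reads in HepLPC replicates 1 and 2 and 0 in both NPC_LPC libraries.

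**Figure D1:**
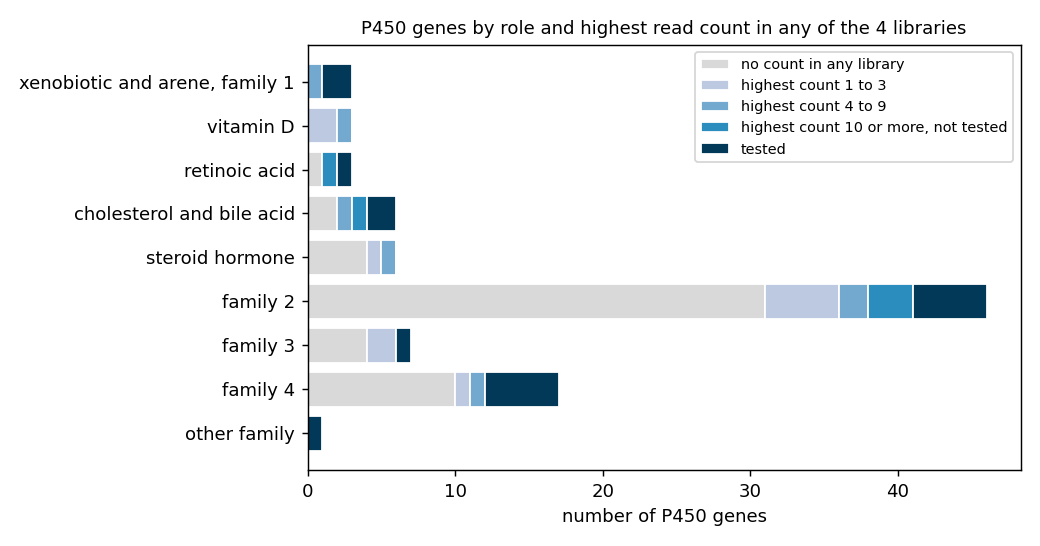
Bars count P450 genes by role, and colours give the highest read count each gene reached in any of the 4 libraries. Pale grey, no read in any library, covers 31 of the 46 genes in the family 2 bar, and the darkest colour marks the 17 genes that could be tested.

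The number of P450 genes with at least 1 read was 32 and 30 in HepLPC replicates 1 and 2 and 30 and 25 in those of NPC_LPC. The library with the fewest, NPC_LPC replicate 2, was also the most deeply sequenced. All P450 reads together made up 0.0347% and 0.0428% of the reads in HepLPC replicates 1 and 2, and 0.0917% and 0.0333% in those of NPC_LPC. NPC_LPC replicate 1 stood apart through 1 gene, since without Cyp1b1 the P450 sum was 270.4 and 349.6 CPM in HepLPC and 307 and 230.2 CPM in NPC_LPC.

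Levels between genes were compared by FPKM, which scales by transcript length. Cyp20a1, an orphan P450 with no settled substrate, and Cyp2s1, an epithelial P450, led the 2 HepLPC libraries, whereas Cyp1b1 led both NPC_LPC libraries. Cyp20a1 measured 17.1 FPKM in HepLPC replicate 1 and 15.2 FPKM in replicate 2, against 14.2 and 17.4 FPKM in the corresponding NPC_LPC libraries. Cyp2s1 measured 16.1 and 25.5 FPKM (HepLPC) against 5.19 and 4.70 FPKM (NPC_LPC). Cyp1b1 measured 12.7 and 11.3 FPKM (HepLPC) against 90.6 and 17.6 FPKM (NPC_LPC). The share of the P450 FPKM sum that came from Cyp1b1 was 14.03% and 10.1% in HepLPC and 52.9% and 21.5% in NPC_LPC. The share from Cyp2s1 was 17.8% and 22.8% against 3.03% and 5.76%.

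**Figure D2:**
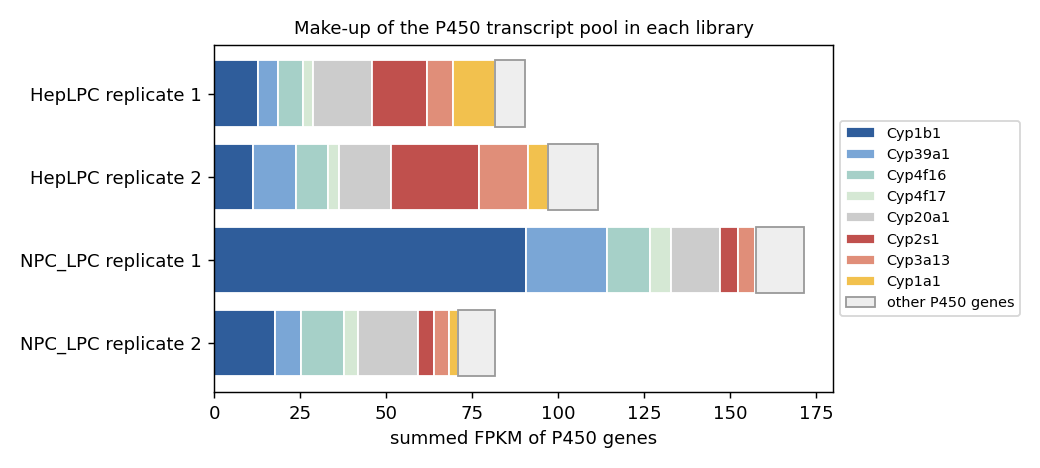
Each bar is 1 library, its length is the summed FPKM of all 92 P450 genes, and segments are the genes with the largest contributions. Cyp1b1 holds 52.9% of the bar of NPC_LPC replicate 1, and the Cyp2s1 segment is wider in both HepLPC libraries than in both NPC_LPC libraries.

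Of the 17 P450 genes tested with edgeR's quasi-likelihood test, 0 passed an adjusted p of 0.05, where 0.43% of all 12332 genes tested passed, 0.227% higher and 0.203% lower in HepLPC. A looser adjusted p of 0.1, which 5.38% of all genes passed, added Cyp2s1 and Cyp4v3, and so did leaving out the filter on low counts, with 3.74% of all genes called. At an unadjusted p under 0.05 there were 6, with 2 higher and 4 lower in HepLPC, against 10.4% and 11.5% of all genes. DESeq2, an alternative that called 11.6% of genes (5.35% higher, 6.24% lower), called 3 P450 genes, Cyp2s1 higher and Cyp4v3 and Cyp1b1 lower in HepLPC. The median log2 fold change of HepLPC over NPC_LPC was 0.07 over the 17 genes and -0.003 over all genes tested. In 6 genes both HepLPC libraries lay above both NPC_LPC libraries and in 6 genes below, against 27.9% and 28.6% of all genes. In bulk RNA, fewer cells that express a gene and less RNA per cell cannot be told apart.

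**Figure D3:**
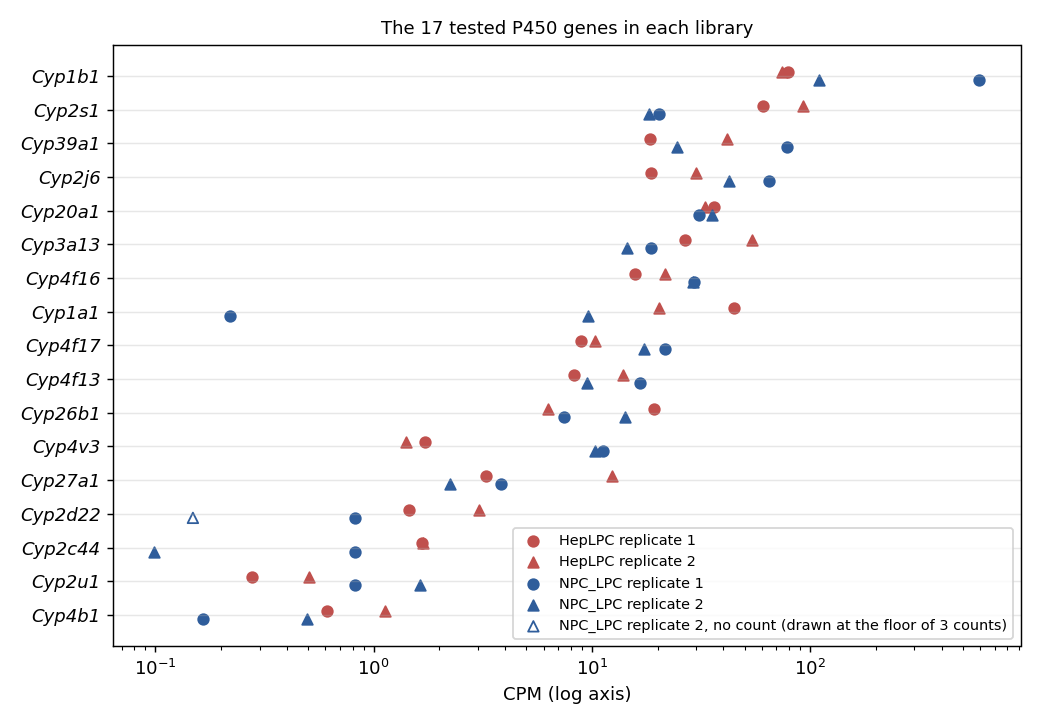
Each row is 1 tested P450 gene and each symbol 1 library, on a log axis of CPM, ordered by mean level. Red and blue symbols separate for 6 genes with HepLPC higher, such as Cyp2s1, and 6 with HepLPC lower, such as Cyp4v3. Of all genes tested, 27.9% and 28.6% did so. The NPC_LPC symbols of Cyp1a1 and Cyp1b1 lie far apart from each other.

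Family 1 genes varied widely between libraries of 1 group. Cyp1b1, which oxidises polycyclic arenes and oestradiol (chr17:79706940-79715061), measured 79.0 CPM in HepLPC replicate 1 and 74.5 CPM in replicate 2, against 594 and 109.7 CPM in the corresponding NPC_LPC libraries. Both NPC_LPC libraries were above both HepLPC libraries, but replicate 1 was 5.42-fold above replicate 2, while the HepLPC libraries were within 1.06-fold. The log2 fold change was -2.20 (SE 0.75, edgeR adjusted p = 0.181), and DESeq2 gave an adjusted p of 0.0112. NPC_LPC replicate 1 decided the size, since without it the log2 fold change was -0.50, with an edgeR adjusted p of 0.558. Without NPC_LPC replicate 2 it was -2.95, with an edgeR adjusted p of 0.0274, in a fit that called 0.837% of all genes. Cyp1a1, the classic pollutant-inducible P450 (chr9:57687928-57703824), was ordered the other way. It reached 44.5 CPM in HepLPC replicate 1 and 20.3 CPM in replicate 2, but 9.61 CPM in NPC_LPC replicate 2 and 0.22 CPM, which is 4 reads, in NPC_LPC replicate 1. The HepLPC libraries lay above, with a log2 fold change of 2.71 (SE 1.36, edgeR adjusted p = 0.304). The 4 reads decided the size here as well, and the log2 fold change was 1.77 without NPC_LPC replicate 1 and 7.16 without NPC_LPC replicate 2, the latter with an edgeR adjusted p of 0.0318. The Cyp1b1 level per length was 1.03 and 2.0 times that of Cyp1a1 in HepLPC, 6.68 times in NPC_LPC replicate 2 and 1433 times in NPC_LPC replicate 1. The library with the most Cyp1b1 was the one with the least Cyp1a1. The core marked above is in the windows of both genes, as in 30.9% of all genes with a window, and its part in these levels was not tested.

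Genes of the aryl hydrocarbon receptor pathway were measured beside them. Of the 7 listed, 6 were tested and edgeR called 0, while DESeq2 called Ahr and Aldh3a1 lower in HepLPC, as it did 6.24% of all genes. The receptor gene Ahr measured 96.2 and 99.98 CPM (HepLPC) against 392 and 137 CPM (NPC_LPC), so that it was highest in the same library as Cyp1b1 (log2 fold change -1.43 with SE 0.50, edgeR adjusted p = 0.187, DESeq2 adjusted p = 0.0427). Without that library, NPC_LPC replicate 1, the log2 fold change of Ahr was -0.46, with an edgeR adjusted p of 0.592. Aldh3a1, an aldehyde dehydrogenase induced through the receptor, measured 2.11 and 2.09 CPM (HepLPC) against 15.4 and 7.83 CPM (NPC_LPC; log2 fold change -2.46 with SE 0.53, edgeR adjusted p = 0.0921, DESeq2 adjusted p = 0.000966). Nqo1, a quinone reductase that the receptor also induces, lay the other way at low levels, with 55 and 11 reads in HepLPC and 1 and 10 in NPC_LPC (log2 fold change 2.69 with SE 1.27, edgeR adjusted p = 0.281). Tiparp, a target that feeds back on the receptor, overlapped between the groups, measuring 31.5 and 36.2 CPM (HepLPC) against 23.5 and 49.2 CPM (NPC_LPC). Ahrr, which encodes a repressor of the receptor, had at most 5 reads. Ahr and Cyp1b1 were both highest in NPC_LPC replicate 1, while Cyp1a1 and Tiparp were lowest there. The part of Ahr in these levels was not tested.

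**Figure D4:**
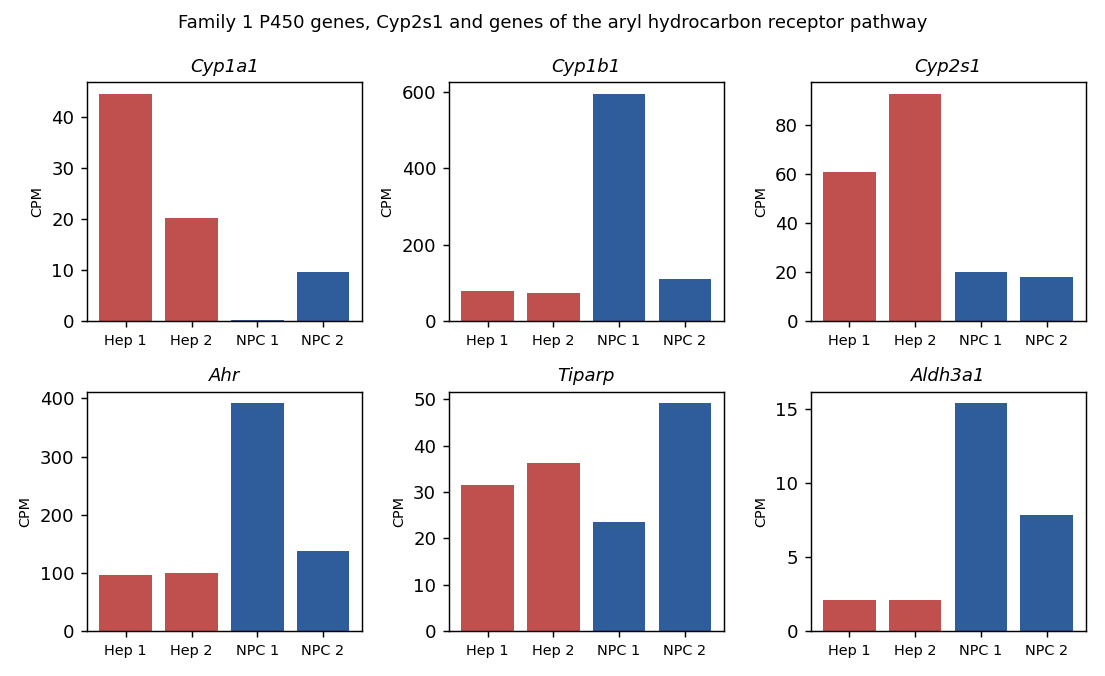
Bars give CPM in each library, red for HepLPC (Hep) and blue for NPC_LPC (NPC), with a separate axis from 0 for each gene. Cyp1b1 and Ahr are highest in NPC_LPC replicate 1, at 594 and 392 CPM, where Cyp1a1 is lowest.

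Cyp2s1 (chr7:25802469-25816525), a P450 of epithelia that is known to respond to dioxin, had the smallest p of the family. It measured 61.0 CPM in HepLPC replicate 1 and 92.9 CPM in replicate 2, against 20.3 and 18.3 CPM in the corresponding NPC_LPC libraries. The groups did not overlap, and the mean was 3.99-fold higher in HepLPC. The log2 fold change was 1.997 (SE 0.31), with an edgeR adjusted p of 0.0656 and a DESeq2 adjusted p of 3.79e-06, and it lay between 1.66 and 2.28 over 15 alternatives. The 4 markers of intestinal epithelium listed for other cell types summed to 722 and 578 CPM in HepLPC and to 12.0 and 30.4 CPM in NPC_LPC. Lgals2 alone made up 655 and 531 CPM of the HepLPC sums, and Cdh17 overlapped between the groups. Of the 4, Lgals2 and Cdx2 rose in HepLPC (edgeR adjusted p = 0.0194 and 0.0466), and all 4 had a fold change above 0. Their part in the Cyp2s1 level was not tested. Cyp2s1 sits at one end of a group of 13 P450 genes on chromosome 7, in which 8 genes had no read and the other 4 had at most 3.

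Cyp2j6 and Cyp3a13 were the other well expressed members of families 2 and 3. Cyp2j6, which belongs to the arachidonic acid epoxygenases (chr4:96516138-96564305), measured 18.6 and 29.9 CPM (HepLPC) against 64.8 and 42.5 CPM (NPC_LPC). The NPC_LPC libraries were both higher, by 2.21-fold in the mean, and the log2 fold change was -1.14 (SE 0.37, edgeR adjusted p = 0.167). The median log2 fold change of the 761 tested genes on chromosome 4 was -0.61, and the part of that shift in the Cyp2j6 difference was not tested. Cyp3a13, the only family 3 gene tested (chr5:137892933-137925610), measured 26.6 and 54.1 CPM (HepLPC) against 18.6 and 14.5 CPM (NPC_LPC; log2 fold change 1.29 with SE 0.42, edgeR adjusted p = 0.169). HepLPC was above NPC_LPC in both libraries, but HepLPC replicate 2 was 2.04-fold above replicate 1. Its gene lies apart from the cluster of 6 other family 3 genes on the same chromosome, where no gene had more than 3 reads.

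Among the low members of family 2 that were tested, 2 lay higher in HepLPC and 1 lay lower. Cyp2d22 (chr15:82370527-82380260) had 26 and 54 reads in HepLPC and 15 and 0 in NPC_LPC, with a log2 fold change of 2.45 (SE 1.45, edgeR adjusted p = 0.373). Its value rested on the NPC_LPC libraries, at 8.40 without replicate 1 and 1.44 without replicate 2, and neither fit called it. The former compares with 0 reads and so depends on the prior count of the fit. Chromosome 15 as a whole had a median log2 fold change of 0.64 over 493 tested genes. Cyp2c44 (chr19:44005022-44029256), an epoxygenase gene, had 30 and 30 reads in HepLPC and 15 and 2 in NPC_LPC (log2 fold change 1.86 with SE 1.05, edgeR adjusted p = 0.352), which was 4.01 without NPC_LPC replicate 1 and 1.02 without NPC_LPC replicate 2. Cyp2u1, a fatty acid hydroxylase, had 5 and 9 reads in HepLPC and 15 and 33 in NPC_LPC (log2 fold change -1.63 with SE 0.85, edgeR adjusted p = 0.323). Of its exon bases, 10.5% overlap a gene on the opposite strand, and the strand setting of the counting is not given in the sources used here. Among genes too low to test, Cyp2c65 had 10 and 9 reads in HepLPC and 0 in both NPC_LPC libraries, and Cyp2d26 had 15 and 9 against 2 and 2. Cyp2c68 had 2 and 13 reads in HepLPC and 2 and 0 in NPC_LPC. Reads of Cyp2c65 and Cyp2c68 are uncertain, because 20.6% and 43.3% of the 50-base words in their transcripts also occur in another gene, mostly Cyp2c66 and Cyp2c40.

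Family 4 genes, the fatty acid and eicosanoid hydroxylases, had 5 tested members, of which 4 had a fold change below 0. Cyp4v3 (chr8:45305801-45333163), the mouse counterpart of the fatty acid hydroxylase gene mutated in Bietti crystalline dystrophy, had 31 and 25 reads in HepLPC replicates 1 and 2 and 205 and 208 reads in those of NPC_LPC. These were 1.72 and 1.41 CPM against 11.3 and 10.3 CPM, so the groups were 6.88-fold apart and the libraries of each group within 1.22-fold. The log2 fold change was -2.78 (SE 0.46), with an edgeR adjusted p of 0.0729 and a DESeq2 adjusted p of 1.66e-05, and it lay between -2.92 and -1.39 over 15 alternatives, the end nearest 0 being on a log2(FPKM + 1) scale that understates low genes. A predicted gene on the same strand, Gm45753, overlaps 8.22% of the Cyp4v3 exon bases.

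In a cluster of 8 genes on chromosome 17, Cyp4f13, Cyp4f16 and Cyp4f17 were tested, while 4 others had no read and Cyp4f14 had at most 4. Cyp4f17 (chr17:32506192-32530158) measured 8.89 and 10.3 CPM (HepLPC) against 21.6 and 17.4 CPM (NPC_LPC; log2 fold change -1.02 with SE 0.34, edgeR adjusted p = 0.174). Cyp4f16 (chr17:32536545-32551798) measured 15.8 and 21.5 CPM (HepLPC) against 29.3 and 28.98 CPM (NPC_LPC; log2 fold change -0.64 with SE 0.31, edgeR adjusted p = 0.286). In both genes the NPC_LPC libraries were the higher pair. Cyp4f13 (chr17:32924688-32947415) overlapped between the groups, measuring 8.28 and 13.9 CPM (HepLPC) against 16.5 and 9.51 CPM (NPC_LPC). Its log2 fold change of -0.23 turned to 0.10 without HepLPC replicate 1 and to 0.24 without NPC_LPC replicate 1. Of the 50-base words of Cyp4f16, 16.3% also occur in Cyp4f37, for which 0 reads were counted in all 4 libraries. Cyp4b1, an oxidase of short fatty acids and furans, had 11 and 20 reads in HepLPC and 3 and 10 in NPC_LPC (log2 fold change 1.37 with SE 0.96, edgeR adjusted p = 0.446).

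**Figure D5:**
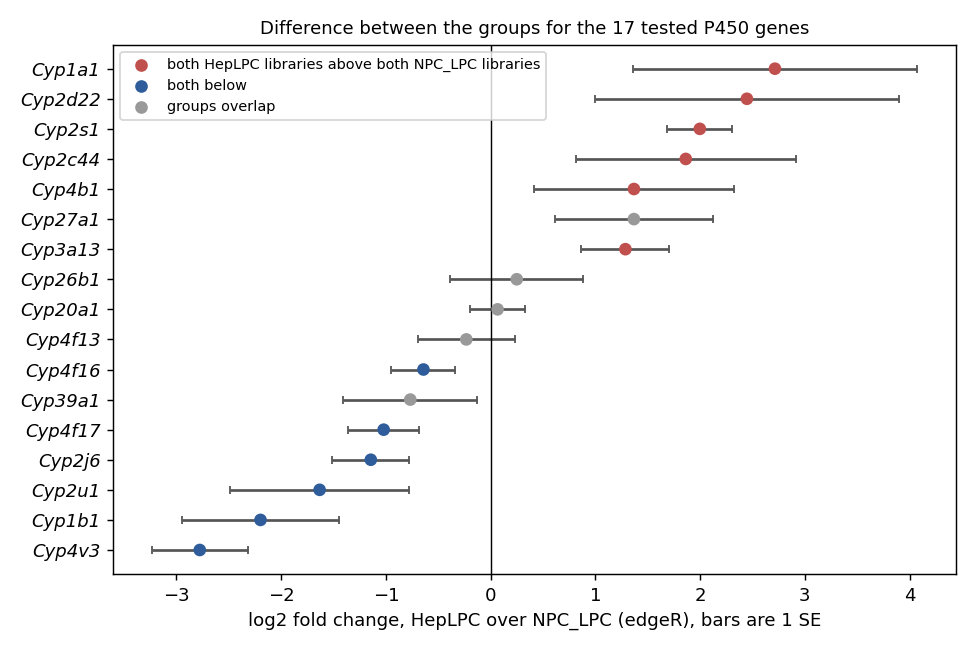
Points are edgeR log2 fold changes of HepLPC over NPC_LPC for the 17 tested P450 genes, bars are 1 SE, and colour shows whether the libraries of the groups overlap. Cyp4v3 at -2.78 and Cyp2s1 at 1.997 have bars that are short for their distance from 0. Cyp1a1, Cyp2d22 and Cyp2c44 have bars of more than 1 log2 unit.

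P450 genes of sterol and bile acid metabolism were expressed through Cyp39a1 and Cyp27a1. Cyp39a1, the oxysterol hydroxylase that acts on 24-hydroxycholesterol in liver (chr17:43667372-43751431), measured 18.4 and 41.7 CPM (HepLPC) against 77.9 and 24.6 CPM (NPC_LPC). The groups overlapped, and NPC_LPC replicate 1 was again the highest library (edgeR adjusted p = 0.516 for a log2 fold change of -0.77, SE 0.64). Without that library the log2 fold change turned to 0.31, with an edgeR adjusted p of 0.85. Cyp27a1, the mitochondrial sterol hydroxylase of the acidic bile acid pathway (chr1:74713148-74737897), measured 3.28 and 12.4 CPM (HepLPC) against 3.84 and 2.23 CPM (NPC_LPC). HepLPC replicate 2 alone stood above the other 3 libraries (log2 fold change 1.37 with SE 0.75, edgeR adjusted p = 0.343). Without it the log2 fold change was 0.11, with an edgeR adjusted p of 0.952. Cyp7b1, the oxysterol hydroxylase of the same pathway, had 13 and 2 reads in HepLPC and 9 and 2 in NPC_LPC. Cyp46a1, the cholesterol hydroxylase of brain, had at most 8 reads.

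Among retinoic acid hydroxylases, Cyp26b1 (chr6:84571414-84593908) measured 19.3 and 6.31 CPM (HepLPC) against 7.41 and 14.1 CPM (NPC_LPC). Both NPC_LPC libraries lay between those of HepLPC, and the log2 fold change of 0.25 (SE 0.63, edgeR adjusted p = 0.85) turned to -0.75 without HepLPC replicate 1 and to -0.12 without NPC_LPC replicate 1. Cyp26a1, a direct target of retinoic acid receptors, had 30 reads in HepLPC replicate 2 and 2, 3 and 2 reads in HepLPC replicate 1 and NPC_LPC replicates 1 and 2, and Cyp26c1 had 0 reads. HepLPC replicate 2, the library with the Cyp26a1 reads, was also the highest for Cyp27a1, Cyp3a13, Cyp2s1 and Cyp2d22, but the lowest of all for Cyp26b1. Of the retinoic acid receptor genes, Rara overlapped between the groups, measuring 33.1 and 48.1 CPM (HepLPC) against 40.4 and 63.2 CPM (NPC_LPC). Rarg measured 51.9 and 56.4 CPM (HepLPC) against 33.9 and 43.3 CPM (NPC_LPC). Rarb was lower in level, with 0.556 and 2.48 CPM (HepLPC) against 6.81 and 2.87 CPM (NPC_LPC; log2 fold change -1.67 with SE 0.89, edgeR adjusted p = 0.331). Vitamin D enzymes were barely detected, and Cyp24a1, Cyp27b1 and Cyp2r1 had at most 2, 5 and 2 reads in a library. Of the 6 steroid hormone genes, 4 had no read, Cyp21a1 had 1 read in each NPC_LPC library and Cyp11a1, the side-chain cleavage enzyme, had 4 reads in HepLPC replicate 1 alone. Cyp20a1 (chr1:60343300-60388060) was the steadiest member, measuring 36.3 and 32.9 CPM (HepLPC) against 30.8 and 35.4 CPM (NPC_LPC; log2 fold change 0.07 with SE 0.26, edgeR adjusted p = 0.909). Without NPC_LPC replicate 1 its log2 fold change was -0.012.

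Several genes of the machinery that P450 enzymes depend on were well expressed where most of the enzymes were not. The ferredoxin gene Fdx1 and Fdxr, of the same mitochondrial system, were lower in level. Fdx1 measured 6.22 and 17.2 CPM (HepLPC) against 12.4 and 5.94 CPM (NPC_LPC), and Fdxr 5.78 and 5.13 against 6.37 and 5.40. Of 45 listed partner genes 38 were tested, and edgeR called 0, with 5 higher and 3 lower in HepLPC at an unadjusted p under 0.05, where 10.4% and 11.5% of all genes were. DESeq2 called 6 of 39, where it called 11.6% of all genes. Of each kind of partner the 2 most abundant genes are given, with 1 exception, and any other partner was picked with its values in view. Por, the electron donor of microsomal P450 enzymes, measured 463 and 444 CPM (HepLPC) against 312 and 152 CPM (NPC_LPC; log2 fold change 0.96 with SE 0.38, edgeR adjusted p = 0.223). Cyb5b and Cyb5r3, of the cytochrome b5 system and the 2 most abundant redox partners, lay between 397 and 709 CPM in all 4 libraries. All 9 redox partners were tested, and 8 of them lay higher in HepLPC by fold change. The median of the 9 was 0.34 on the log2 scale, against -0.003 over all genes tested. Of those 8, Cyb5a, Cyb5b, Fdx1 and Pgrmc1 overlapped between the groups, while Por, Cyb5r3, Fdx1l and Pgrmc2 did not. Over all genes tested, 27.9% lay higher in HepLPC without overlap. With 1 library left out, the log2 fold change turned in sign for 3 of them. It was -0.11 for Cyb5b without HepLPC replicate 1 and -0.56 for Fdx1 without HepLPC replicate 2. Without NPC_LPC replicate 2 it was -0.08 for Fdx1 and -0.13 for Cyb5a. All 12 genes of haem synthesis and breakdown were tested as well, 4 with a fold change above 0 and 8 below. Hmox1, the inducible haem oxygenase, measured 169 and 184 CPM (HepLPC) against 538 and 178 CPM (NPC_LPC), which again set NPC_LPC replicate 1 apart. Cpox, a late enzyme of haem synthesis, measured 186 and 107 CPM (HepLPC) against 53.2 and 105.8 CPM (NPC_LPC). Cyp51, the sterol demethylase of cholesterol synthesis, which lies outside the symbol rule, measured 152 and 222 CPM (HepLPC) against 114 and 95.8 CPM (NPC_LPC; log2 fold change 0.83 with SE 0.28, edgeR adjusted p = 0.177). The prostanoid P450 genes Tbxas1 and Ptgis had at most 5 and 1 reads.

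The receptors that drive hepatic drug metabolism were barely detected as well. Nr1i2, which encodes PXR, had 2 and 9 reads in HepLPC and 0 in NPC_LPC, and Nr1i3, which encodes CAR, had 1 read in all. Rxra, the partner of both, measured 76.0 and 57.4 CPM (HepLPC) against 87.0 and 51.8 CPM (NPC_LPC). Hnf4a, a hepatocyte transcription factor that P450 genes of families 2 and 3 depend on, measured 235 and 249 CPM (HepLPC) against 27.4 and 49.9 CPM (NPC_LPC; log2 fold change 2.65 with SE 0.35, edgeR adjusted p = 0.057, DESeq2 adjusted p = 7.05e-10). Cyp2e1, Cyp2c29, Cyp3a11 and Cyp8b1 had 0 reads in every library. Among untested genes of family 2, Cyp2b10, Cyp2c65, Cyp2c70 and Cyp2d26 had more reads in both HepLPC libraries than in either NPC_LPC library. Of these, Cyp2c70 had 4 and 9 reads in HepLPC and 0 in both NPC_LPC libraries. Cyp2f2, Cyp2j8 and Cyp2t4, with at most 2 reads, had them in NPC_LPC alone. Among tested genes of families 2 and 3, Cyp2s1, Cyp2c44, Cyp2d22 and Cyp3a13 lay higher in HepLPC, and Cyp2j6 and Cyp2u1 lower. The part of Hnf4a in these levels was not tested. Nr1h4, the bile acid receptor, measured 22.1 and 27.6 CPM (HepLPC) against 8.62 and 9.61 CPM (NPC_LPC; log2 fold change 1.45 with SE 0.33, edgeR adjusted p = 0.099, DESeq2 adjusted p = 0.00372). Vdr, the vitamin D receptor, measured 1.0003 and 1.35 CPM (HepLPC) against 5.27 and 9.11 CPM (NPC_LPC; log2 fold change -2.61 with SE 0.58, edgeR adjusted p = 0.0977, DESeq2 adjusted p = 0.00254). Its target Cyp24a1 had 2 reads in all, both in NPC_LPC replicate 2, and the part of Vdr in that level was not tested. DESeq2 also called the oxysterol receptor gene Nr1h3 higher in HepLPC (adjusted p = 0.0302), and its edgeR log2 fold change of 2.83 was 5.76 without NPC_LPC replicate 1 and 1.92 without NPC_LPC replicate 2.

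Expressed P450 genes were spread over the genome. Members whose starts lay within 500000 bases of the next were joined, which put 70 genes in 10 clusters and left 22 genes on their own. Of the clustered genes 8 were tested and 46 had no read, and of the single genes 9 were tested and 6 had no read. The largest cluster, 14 genes of subfamily 2c on chromosome 19, held no tested gene, and 10 of its genes had no read. In the clusters of subfamilies 2j on chromosome 4 and 2d on chromosome 15, with 7 and 8 genes, the tested genes were Cyp2j6 and Cyp2d22 only. The promoters differed in a simple feature as well. The TATA box letters TATAAA, on either strand within 250 bases before the start, were in 27 of the 72 P450 genes with a window, which is 37.5% against 14.3% of all genes. They were in 19 of 40 P450 genes with no read, and in 2 of the 12 tested genes with a window, Cyp1a1 and Cyp26b1. Many neighbours within a cluster belong to 1 subfamily and are similar in sequence, so these counts are not independent, and no test was made.

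Total counts were between 17575998 and 20625957 per library, which at 3 reads is a floor of at most 0.169 CPM. Lists of markers for 6 cell types, 29 genes in all, were checked beside the P450 genes. The 6 hepatocyte markers summed to 9.002 and 2.65 CPM in HepLPC and to 0.329 and 0.198 CPM in NPC_LPC, with Tat at 0, and Alb was at 2.28 CPM or less in every library. The 5 cholangiocyte markers summed to between 2073 and 9312 CPM, mostly from Spp1 and Krt19. Spp1 and Sox9 were highest in NPC_LPC replicate 1, where Krt19, Krt7 and Epcam were lowest. The 6 stellate or fibroblast markers summed to between 3.21 and 13.3 CPM, with Lrat at 0, and the 4 endothelial markers to at most 0.545 CPM. The 4 leukocyte or Kupffer markers summed to between 13.4 and 79.9 CPM, nearly all of it Cd68, with Clec4f at 0. Ptprc and Adgre1 had at most 5 and 1 reads, and both were highest in NPC_LPC replicate 2. The sum, through Cd68, was highest in NPC_LPC replicate 1. Cyp1b1, Cyp39a1, Cyp2j6, Cyp4v3, Cyp4f13, Cyp4f16 and Cyp4f17 were also highest in that library. The part of these markers in those levels was not tested.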

How the data were processed

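RNA of 2 HepLPC and 2 NPC_LPC libraries, grouped by title, was isolated with RNeasy kits and sequenced as paired-end TruSeq Stranded mRNA libraries, per the labels' protocols. The submitters' processing notes list Trimmomatic, HISAT2, Cufflinks, HTSeq and DESeq and the build mm10, while versions, annotation and strand setting are not given by the sources used. The authors deposited raw read counts per gene and FPKM values, which scale by length and depth, side by side for each library. Counts were tested with edgeR 4.0.16 (R 4.3.3), with TMM scaling, filterByExpr at a minimum count of 10, the quasi-likelihood test and Benjamini-Hochberg adjustment over all 12332 genes tested, at an adjusted p of 0.05. Fold changes are HepLPC over NPC_LPC, and CPM use the TMM-scaled library totals. FPKM served to compare genes. Alternatives used DESeq2 1.42.0 and limma 3.58.1, and the edgeR fit was tested on simulated data. With 2 libraries against 2, an exact permutation test cannot go below p = 0.333, so none was run for single genes. Positions and promoter windows are from RefSeq on GRCm38.p6, which matched all 92 P450 genes by symbol or synonym, Cyp2c44 as Cyp2c23. Windows were looked up by symbol only, and 72 of the genes had one. Transcript overlap used GENCODE M21. The text names every tested P450 gene, every untested one with at least 10 reads in a library, a list of hepatocyte P450 genes and, of each kind of partner, called genes and the 2 most abundant. One of these partners is not reported here. Other low P450 genes and partners were named after their values were seen. The P450 genes and all lists were chosen with earlier results of these data known.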

Additional observations from a re-analysis of the deposited data

How the results depend on the processing

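edgeR called 53 genes in all, 0 P450 genes and 0 partner genes. Median-ratio, upper-quartile and library-total scaling gave 66, 66 and 70 genes in all, and library totals called 1 partner. Without the filter on low counts there were 593 genes, 2 P450 genes (Cyp2s1 and Cyp4v3) and 2 partners, and with the filter of 50 counts 117 genes and 1 partner. DESeq2 called 1521 genes, 3 P450 genes and 6 partners, and limma-voom called 5 genes. An adjusted p of 0.1 gave 663, 2 and 4. limma on log2(FPKM + 1) called 114 genes and 1 partner, with a pseudocount of 0.1 it called 76 and 1, and without the FPKM filter 0, with 2820 at an unadjusted p under 0.05. Whether replicate numbers pair the libraries was not settled, as the correlation of deviations (-0.02 over 12332 genes) cannot decide it. A fit with the replicate block called 136 genes and 1 partner, Hnf4a. Leaving out 1 library gave between 0 and 377 genes, between 0 and 2 P450 genes and between 0 and 2 partners, where the lone library is assumed to vary like the other group. Without HepLPC replicate 1 or 2 there were 0 genes, with 2065 and 2258 at an unadjusted p under 0.05, and without NPC_LPC replicates 1 and 2 there were 377 and 107. The 2 P450 genes were Cyp1b1 and Cyp1a1, without NPC_LPC replicate 2. The partners were Nr1h3 and Hnf4a without NPC_LPC replicate 1, and Hnf4a without NPC_LPC replicate 2. The log2 fold change turned in sign without HepLPC replicate 1 for Cyp26b1 (-0.75) and Cyp4f13 (0.10), and without NPC_LPC replicate 1 for Cyp26b1 (-0.12), Cyp39a1 (0.31), Cyp4f13 (0.24) and Cyp20a1 (-0.012). With 1 library left out, the ranges were -0.75 to 0.84 for Cyp26b1, -1.47 to 0.31 for Cyp39a1, -0.65 to 0.24 for Cyp4f13 and -0.012 to 0.169 for Cyp20a1. Over the 17 P450 genes and all alternatives, 228 values kept direction and side of the threshold, 7 moved past it and 6 turned in sign. The cause was not tested.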
